A study of Mus musculus with 8 samples.

Results

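The iron genes of the liver described here are the 10 rows of the FPKM table that carry the mouse symbols *Hamp*, *Hamp2*, *Hfe*, *Tfr2*, *Tfrc*, *Trf*, *Scara5*, *Slc40a1*, *Fth1* and *Ftl1*, of 38283 rows in all. They were picked by name, for their part in iron handling, and all 10 exceeded an FPKM of 1 in at least 1 library, the limit for entering the tests. FPKM are fragment numbers scaled by transcript length and by the mapped reads of the library, so that levels can be set side by side between genes. None of the 10 was listed at 0 in any library.

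Hepatocytes take up iron from transferrin, store it in ferritin and secrete the peptide hormone hepcidin. Hepcidin binds ferroportin, the iron exporter, and causes its degradation, so that less iron leaves enterocytes, macrophages and hepatocytes. Hepcidin transcription is driven by bone morphogenetic proteins acting through SMAD factors and by interleukin-6 acting through STAT3, while the messages of ferritin, ferroportin and the transferrin receptor are also controlled by iron regulatory proteins that bind a hairpin called the iron-responsive element.

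RNA was sequenced from livers of male mice of the C57BL/6 background that were homozygous for a floxed *Rora* allele, with loxP sites around exons 4 and 5 of this nuclear receptor gene. The RORα f/f mice carried no Cre, and the RORα LKO mice also carried Alb-Cre, in which the albumin promoter drives the recombinase in hepatocytes. Feeding began at 8 weeks of age and lasted 10 weeks, on a control diet (CD) or on a high-fat diet (HFD) with 60% of its kcal from fat. Each of the 4 groups (CD-fed f/f, CD-fed LKO, HFD-fed f/f and HFD-fed LKO) had 2 libraries. A library came from the pooled livers of 2 mice, so that the spread between libraries is a spread between pools.

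The whole-gene FPKM of *Rora* was 8.85 and 8.59 for f/f on CD, 7.96 and 8.18 for LKO on CD, 7.56 and 7.86 for f/f on HFD, and 7.30 and 8.02 for LKO on HFD. The LKO libraries lay below the f/f ones on CD, and the genotypes overlapped on HFD (log2 fold change 0.01, limma adjusted p = 0.97). The deletion covers only exons 4 and 5, so that each direction between genotypes below rests on the labels. The sample titles read KO and WT, and these are written here as LKO-labelled and f/f-labelled after the study's names. In its own assays the study reported hepatic RORα mRNA and protein as depleted in LKO mice. Between 10587 and 10706 genes exceeded an FPKM of 1 per library, and between 29.7% and 43.7% of a library's total FPKM fell on its top 10 genes. That total was 739200 to 983700 in CD-fed and 732600 to 755600 in HFD-fed libraries. Deposited FPKM set side by side below are not adjusted for these totals, which were mostly higher on CD. Hepatocyte markers other than *Alb* summed to between 13340 and 14680 FPKM on CD and between 11310 and 12100 on HFD, without overlap. *Alb* itself was listed at 0 in 4 libraries and at 29902 to 30888 in the others, so that a listed 0 in this table need not be an absent transcript. The libraries at 0 were the first LKO-labelled CD, the second f/f-labelled HFD and both LKO-labelled HFD ones, so that the diets were affected unequally. The table holds no read counts, and counting error is therefore not given.

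Sequence motifs through which iron and hepcidin control are known to act are shown first, for those of the genes that hold them. A search of 1 transcript per gene (GENCODE M21, GRCm38) for C, 5 bases, CAGTGN and 5 bases complementary to the first run, with G and T allowed to pair, found the hairpin letters in the untranslated regions of 4 of the 10 genes. The same search found them in 258 of 21951 protein-coding genes (1.18%) and in 0 of the 74 genes of the wider iron list described below. Hairpins with an unpaired base in these runs, or in other transcripts of a gene, were not searched, so that a 0 does not show their absence. *Fth1* and *Ftl1*, the heavy and light ferritin chains, and *Slc40a1*, ferroportin, held 1 each in the 5′ untranslated region, and *Tfrc*, the transferrin receptor, held 4 in the 3′ untranslated region. They are written 5′ to 3′ on the gene's strand, with the loop in capitals.
Fth1, chr19:9982732-9982760, plus strand: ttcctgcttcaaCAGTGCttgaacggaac
Ftl1, chr7:45459779-45459807, minus strand: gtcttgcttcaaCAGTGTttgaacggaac
Slc40a1, chr1:45925465-45925493, minus strand: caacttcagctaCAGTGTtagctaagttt
Tfrc site 1, chr16:32631219-32631247, plus strand: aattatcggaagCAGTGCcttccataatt
Tfrc site 2, chr16:32631598-32631626, plus strand: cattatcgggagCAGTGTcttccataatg
Tfrc site 3, chr16:32631663-32631691, plus strand: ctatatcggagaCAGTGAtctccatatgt
Tfrc site 4, chr16:32631710-32631738, plus strand: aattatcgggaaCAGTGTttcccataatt

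The hepcidin genes *Hamp* and *Hamp2* lie side by side on chromosome 7 and are near copies. Their transcripts were identical at 94.6% of 410 aligned bases and their promoters at 92.9% of 297. The promoters (RefSeq, GRCm38.p6) were searched on both strands for GGCGCC, the core of the BMP-responsive element, which 11.9% of 32851 promoters held. *Hamp* held it at 109 bases before its start. *Hamp2* had the substitution G4A in the stretch aligned with GGCGCC, counted from 1 at the 5′ end of that stretch with the *Hamp* base first. The stretches are printed on the minus strand, with the motif in capitals.
Hamp, BMP-responsive element, chr7:30944123-30944148: ccgcctgtttGGCGCCactattttct
Hamp2, aligned stretch, chr7:30924272-30924297: ccgcctgtttGGCACCactatcttct

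Among the 7 genes of the 10 with a RefSeq promoter, GGCGCC was also found in that of *Tfrc*, and TAGGTCA, the core of the ROR response element, held by 2.61% of all promoters, was found in 0 of them. No promoter sequence was matched for *Trf*, *Slc40a1* and *Scara5*. A match or its lack describes these letters in a short window only.

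Near copies also bear on how reads were assigned. Of the 50-base stretches of the *Ftl1* transcript, 90.6% also occurred in 1 or more of 17 other annotated genes, and *Ftl1-ps1* had the most of them. For *Trf* the share was 79.8%, all of it with the gene Gm20425. It was 26.8% for *Hamp2*, 16.6% for *Hamp*, 6.59% for *Fth1* and 3.32% for *Hfe*. It was 0 for *Tfrc*, *Tfr2*, *Slc40a1* and *Scara5*. How reads were divided is thus less certain for *Ftl1*, *Trf*, *Hamp2* and *Hamp* than for the other 6. As deposited, Gm20425 was at 10.4 to 14.4 FPKM and *Ftl1-ps1* at 3.78 to 8.98, and the other copies of *Ftl1* that have a row were at 0.36 or below, all far under *Trf* and *Ftl1*.

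The 10 genes spanned levels from 0.546 to 6098 FPKM. *Trf*, which encodes the plasma iron carrier transferrin, was the highest in every library with 3712 to 6098 FPKM. *Fth1* followed with 1597 to 1853 and *Ftl1* with 1348 to 1721 FPKM, and the ratio of the ferritin chains stayed between 1.02 and 1.25 with *Fth1* above *Ftl1* in all 8 libraries. *Hamp* ranged from 438 to 2627 FPKM and crossed the ferritin levels, lying above *Fth1* in 3 of the CD-fed libraries and below it in the fourth and in all HFD-fed libraries. *Hamp2* (50.1 to 263 FPKM) and *Tfr2* (95.8 to 120.8 FPKM) overlapped. *Slc40a1* followed (36.1 to 55.4), below *Tfr2* and overlapping the range of *Hamp2*. *Hfe* (10.95 to 22.0), *Tfrc* (4.68 to 7.62) and *Scara5* (0.546 to 3.73) came next in that order without overlap. Of the receptors that bind transferrin, *Tfr2* exceeded *Tfrc* between 13.9-fold and 22.8-fold.

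**Figure D1:**
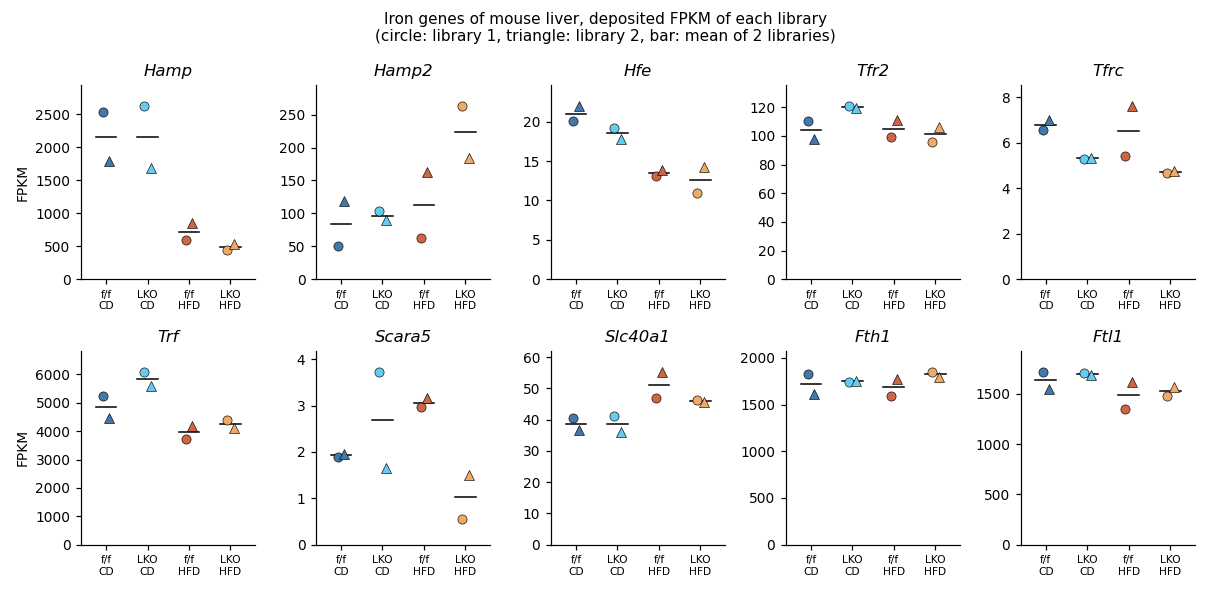
FPKM of each of the 10 iron genes (vertical axis, from 0) in the CD-fed and f/f-labelled HFD and LKO-labelled libraries, with the mean of the 2 libraries of a group as a bar. All 4 HFD-fed libraries lay below all 4 CD-fed libraries for *Hamp*, *Hfe* and *Trf* and above them for *Slc40a1*.

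Between the diets, *Hamp* and *Hfe* fell and *Slc40a1* rose over both genotypes, and the other 7 genes did not pass adjustment. *Hamp*, the main hepcidin gene (chromosome 7, 30942368 to 30944032, minus strand), stood at 2537 and 1789 FPKM in the f/f-labelled CD libraries and at 2627 and 1688 in the LKO-labelled CD libraries. It stood at 590 and 855 in the f/f-labelled HFD libraries and at 438 and 539 in the LKO-labelled HFD libraries. The lowest CD-fed library was thus well above the highest HFD-fed one. Averaged over the genotypes, *Hamp* fell on HFD to 0.326 of its CD level (log2 fold change −1.62, standard error 0.20, limma adjusted p = 0.0079). The adjusted p stayed between 0.0025 and 0.038 over 13 alternatives, which included leaving out each library. Within the LKO-labelled libraries *Hamp* fell by 1.81 on the log2 scale (standard error 0.28, limma adjusted p = 0.030). Within the f/f-labelled libraries the log2 fold change was −1.43 (standard error 0.28, limma adjusted p = 0.066). The difference between these 2 values was −0.38 (95% interval −1.32 to 0.56, limma adjusted p = 0.80). The call within LKO rested on single libraries, since its adjusted p was 0.056 and 0.058 without the first and the second f/f-labelled CD library, 0.10 and 0.11 without the first and the second LKO-labelled CD one, and 0.16 and 0.12 without the first and the second LKO-labelled HFD one. It was 0.069 when genes with low FPKM were kept.

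*Hamp2* (chromosome 7, 30922372 to 30924681, minus strand) encodes a second hepcidin whose role is less clear. Its FPKM was 50.1 and 118.2 in the f/f-labelled CD libraries, 103.0 and 90.0 in the LKO-labelled CD, 61.8 and 163.2 in the f/f-labelled HFD and 263.0 and 183.6 in the LKO-labelled HFD libraries. The 2 libraries of a group differed by up to 2.64-fold, and the f/f-labelled groups overlapped between the diets. In the LKO-labelled libraries the log2 fold change on HFD was 1.31 (standard error 0.54, limma adjusted p = 0.23), opposite in sign to that of *Hamp*. The ratio of *Hamp* to *Hamp2* within a library ran from 15.1 to 50.6 on CD, from 5.24 to 9.55 in f/f-labelled HFD libraries and from 1.67 to 2.93 in LKO-labelled HFD libraries. The highest ratio on HFD was below the lowest on CD.

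*Hfe* (chromosome 13, 23702034 to 23710854, minus strand) encodes a membrane protein that binds transferrin receptors and promotes hepcidin transcription. Its FPKM was 20.1 and 22.0 in the f/f-labelled CD, 19.2 and 17.8 in the LKO-labelled CD, 13.1 and 13.8 in the f/f-labelled HFD and 10.95 and 14.3 in the LKO-labelled HFD libraries. The diets did not overlap. *Hfe* fell on HFD to 0.689 of its CD level over both genotypes (log2 fold change −0.54, standard error 0.08, limma adjusted p = 0.014). The adjusted p was 0.062, 0.051 and 0.059 without the second f/f-labelled CD, the second LKO-labelled CD and the first f/f-labelled HFD library, and it was between 0.021 and 0.049 without each other library. The log2 fold changes within f/f and within LKO were −0.58 and −0.50, with limma adjusted p of 0.074 and 0.078. Among the 6 hepatocyte markers, whose sum without *Alb* was lower on HFD, *Tat* fell by 1.14 on the log2 scale (limma adjusted p = 0.0061). After quantile normalization *Ttr* was higher by 0.39 (limma adjusted p = 0.026), and the other 4 did not pass. As deposited, *Ttr* was 3994 to 4541 FPKM on CD and 4034 to 4302 on HFD, which overlap, so no direction is given for it. The part of these markers in the values of *Hamp*, *Hfe* and *Trf* was not tested.

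*Slc40a1* (chromosome 1, 45908068 to 45926523, minus strand) was the member that rose. Its FPKM was 40.5 and 36.8 in the f/f-labelled CD, 41.1 and 36.1 in the LKO-labelled CD, 47.0 and 55.4 in the f/f-labelled HFD and 46.3 and 45.6 in the LKO-labelled HFD libraries. Every HFD-fed library was above every CD-fed one. The rise over both genotypes was 1.28-fold (log2 fold change 0.36, standard error 0.07, limma adjusted p = 0.031). This call was lost (adjusted p 0.064 to 0.11) without any 1 of 6 libraries, namely both f/f-labelled CD, the second LKO-labelled CD, the second f/f-labelled HFD and both LKO-labelled HFD libraries, and at 0.061 with low genes kept. Ferroportin is also made by Kupffer cells, whose 6 markers, all detected in every library, summed to 67.8 to 92.6 FPKM on CD and 54.6 to 94.97 on HFD. None of these 6 had an adjusted p under 0.05 by limma for diet (1 an unadjusted p), while 3 of 6 stellate cell and 1 of 5 sinusoidal endothelial markers rose on HFD (9.89% of all genes passed in either direction). Their part in the value of *Slc40a1* was not tested. In bulk liver, fewer cells of a type and less RNA per cell cannot be told apart.

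Of the genes for iron delivery, *Trf* (chromosome 9, 103204001 to 103230444, minus strand) stood at 5256 and 4458 FPKM in the f/f-labelled CD, 6098 and 5604 in the LKO-labelled CD, 3712 and 4194 in the f/f-labelled HFD and 4377 and 4122 in the LKO-labelled HFD libraries. All HFD-fed libraries lay below all CD-fed ones as deposited. After quantile normalization, which forces the libraries to 1 common distribution and moves the most abundant genes most, the log2 fold change was −0.12 (standard error 0.19, limma adjusted p = 0.72). Without it the value was −0.38 (standard error 0.08, limma adjusted p = 0.034). A listed 0 for *Alb* leaves the less abundant genes a rank higher in that library, and more HFD-fed than CD-fed libraries had it. The part of *Alb* in the normalized diet values of abundant genes was not tested. The ferritin chains also depended on quantile normalization. *Fth1* was 1832 and 1612 FPKM in the f/f-labelled CD, 1742 and 1753 in the LKO-labelled CD, 1597 and 1771 in the f/f-labelled HFD and 1853 and 1800 in the LKO-labelled HFD libraries, which overlap between the diets. Its log2 fold change on HFD over both genotypes was 0.37 (standard error 0.10, limma adjusted p = 0.067) with quantile normalization and 0.02 without it. With only genes above an FPKM of 1 in all 8 libraries tested, and with quantile normalization, *Fth1* passed (0.36, limma adjusted p = 0.032). *Ftl1* was 1721 and 1544, 1704 and 1688, 1348 and 1621, and 1482 and 1566 FPKM in the same order of groups, and its log2 fold change was 0.17 with the step and −0.15 without it. No direction is given for the ferritins.

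**Figure D2:**
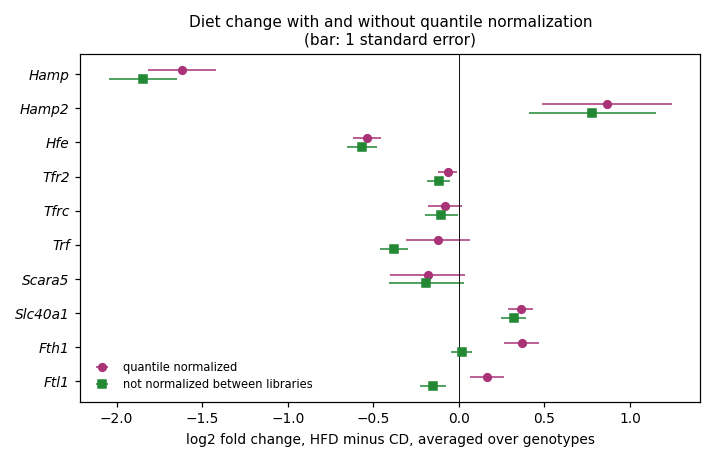
Log2 fold change of the 10 iron genes on HFD over both genotypes (horizontal axis), with quantile normalization (circles) and without it (squares), with 1 standard error. *Hamp* (−1.62 and −1.85), *Hfe* (−0.54 and −0.57) and *Slc40a1* (0.36 and 0.32) kept their direction and their call, although the value of *Hamp* also moved. *Trf* passed only without quantile normalization, *Fth1* shrank without it and *Ftl1* changed sign.

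For the remaining members the average over genotypes did not pass adjustment. *Tfr2* (chromosome 5, 137569840 to 137587481, plus strand), an iron sensor of hepatocytes that acts with *Hfe*, was 110.3 and 97.7 FPKM in the f/f-labelled CD, 120.8 and 119.6 in the LKO-labelled CD, 98.9 and 111.3 in the f/f-labelled HFD and 95.8 and 106.3 in the LKO-labelled HFD libraries. Its log2 fold change over both genotypes was −0.07 (95% interval −0.20 to 0.07, limma adjusted p = 0.51). *Tfrc* (chromosome 16, 32608920 to 32632794, plus strand), the receptor that brings transferrin into the cell, had a log2 fold change of −0.08 (95% interval −0.31 to 0.15, limma adjusted p = 0.65). For *Scara5* (chromosome 14, 65666403 to 65764826, plus strand), a ferritin receptor, it was −0.18 (95% interval −0.70 to 0.34, limma adjusted p = 0.64). This average joined opposite values for *Scara5*, 0.48 in f/f-labelled libraries (standard error 0.31) and −0.84 in LKO-labelled libraries (standard error 0.31, limma adjusted p = 0.18), and the normalized values did not overlap between the diets in either genotype.

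In counts, 4 of the 10 genes had an unadjusted limma p under 0.05 for diet over both genotypes (*Hamp*, *Hfe*, *Slc40a1* and *Fth1*) against 27.9% of all 11634 genes tested, and 3 (*Hamp*, *Hfe* and *Slc40a1*) had an adjusted p under 0.05 against 9.89%. The deposited FPKM of 4 of the 10 did not overlap between the diets, against 16.5% of all genes. In f/f-labelled libraries 3 of 10 had an unadjusted p under 0.05 (background 19.2%) and 0 an adjusted one (1.33%). In LKO-labelled libraries 6 of 10 had an unadjusted p under 0.05 (21.3%). These were *Hamp*, *Hfe* and *Scara5* on the lower side (9.69%) and *Hamp2*, *Fth1* and *Slc40a1* on the higher side (11.7%), and 1, *Hamp*, had an adjusted p under 0.05 (3.02%). The side of *Fth1* here is that of the quantile-normalized values, and without that step its value was 0.064. The deposited FPKM of all 10 genes did not overlap between the diets in LKO-labelled libraries (background 53.2%), with 3 higher on HFD (22.9%) and 7 lower (30.2%), and those of 5 did not in f/f-labelled libraries (49.9%). *Ftl1* was among the lower as deposited, but its normalized values in LKO-labelled libraries were higher on HFD. The comparisons within a genotype use the same libraries as the average over genotypes, so that they are not separate evidence.

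**Figure D3:**
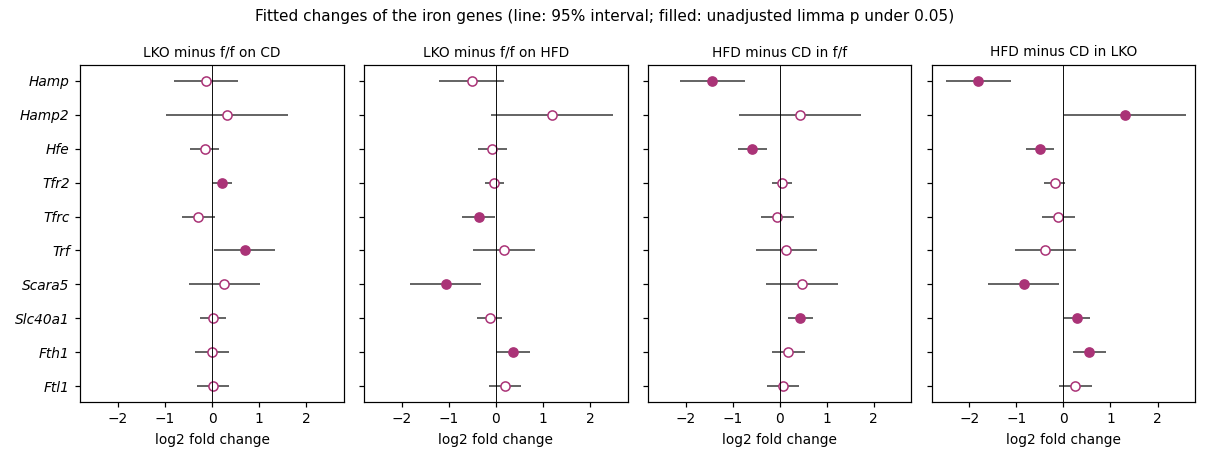
Log2 fold changes (horizontal axis) of the 10 iron genes in the comparisons of genotype on each diet and of diet in each genotype, with 95% intervals; filled points have an unadjusted limma p under 0.05. *Hamp* and *Hfe* lie below 0 and *Slc40a1* above 0 in both diet panels, and few intervals leave 0 in the genotype panels.

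Between the genotypes, 0 of the 10 genes had an adjusted p under 0.05 by limma on either diet or over both. On HFD 3 had an unadjusted p under 0.05 (background 9.58%, and 0.043% for adjusted p), and the deposited FPKM of 6 did not overlap between genotypes (42.1%). *Scara5* was 2.97 and 3.16 FPKM in the f/f-labelled HFD libraries and 0.546 and 1.49 in the LKO-labelled HFD libraries, which do not overlap. The log2 fold change was −1.07 (standard error 0.31, 95% interval −1.80 to −0.33, limma adjusted p = 0.34). On CD it was 1.89 and 1.96 FPKM in the f/f-labelled and 3.73 and 1.66 in the LKO-labelled libraries, which overlap (log2 fold change 0.26, standard error 0.31). The difference of the genotype values between the diets was −1.32 (standard error 0.44, limma adjusted p = 0.56). Only 21.7% of the tested genes had a mean level below that of *Scara5*, and its LKO-labelled libraries differed by 2.24-fold on CD and 2.74-fold on HFD, so that 1 pool carries much of each mean. Fibroblasts can express *Scara5*, and the stellate cell and fibroblast list had 6 of 6 markers detected in every library, and these summed to 76.6 to 103.5 FPKM in f/f-labelled HFD and 82.4 to 103.5 in LKO-labelled HFD libraries, which overlap. Their part in the value of *Scara5* was not tested.

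*Tfrc* was lower in the LKO-labelled libraries on both diets as deposited. Its FPKM was 6.55 and 7.01 in the f/f-labelled CD, 5.30 and 5.32 in the LKO-labelled CD, 5.402 and 7.62 in the f/f-labelled HFD and 4.68 and 4.78 in the LKO-labelled HFD libraries. All 4 LKO-labelled libraries lay below all 4 f/f-labelled ones, a separation that *Tfrc* alone of the 10 showed and that 4.91% of all genes showed. The log2 fold change over both diets was −0.33 (standard error 0.10, 95% interval −0.56 to −0.09, limma adjusted p = 0.23). *Tfrc* was the 1 of 10 with an unadjusted p under 0.05 there (background 13.5%, and 0.103% for adjusted p). By diet it was −0.36 on HFD (limma adjusted p = 0.48) and −0.30 on CD (limma adjusted p = 0.44). Without the second f/f-labelled HFD library, the highest of all, the HFD value was −0.14. *Tfrc* is abundant in erythroid precursors, and the 7 erythroid markers summed to 65.8 to 420 FPKM in f/f-labelled and 121 to 503 in LKO-labelled libraries, with 2 markers at 0 in some library. Their part in the value of *Tfrc* was not tested.

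The other members did not separate by genotype to the same degree. *Hamp2* on HFD had a value of 1.198 on the log2 scale (standard error 0.54, limma adjusted p = 0.55), and its interval of −0.08 to 2.47 spans both no difference and a large one. Leaving out the first f/f-labelled HFD library brought the value to 0.51, and leaving out the second brought it to 1.89. *Hamp* was at −0.51 on HFD and at −0.14 on CD, each with a standard error of 0.28 (limma adjusted p = 0.62 and 0.87). *Fth1* on HFD was 0.36 (standard error 0.14, limma adjusted p = 0.48) and 0.12 without quantile normalization. On CD, 2 of 10 had an unadjusted p under 0.05 (background 12.3%, and 0.0172% for adjusted p), both higher in LKO-labelled libraries (6.15%). These were *Trf* (log2 fold change 0.69, standard error 0.26, limma adjusted p = 0.36), which was 0.27 without quantile normalization, and *Tfr2* (0.21, standard error 0.08, limma adjusted p = 0.36). The deposited FPKM of 4 of 10 did not overlap between genotypes on CD (43.3%). For the difference between the diets, *Scara5* was the 1 of 10 with an unadjusted p under 0.05 (background 8.35%, and 0.0344% for adjusted p).

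A wider list of 74 iron genes, 68 of them tested, places these values among the regulators and partners. For diet over both genotypes 24 of the 68 had an unadjusted limma p under 0.05 (35.3%, beside the 27.9% of all genes), with 12 higher and 12 lower on HFD, and 9 had an adjusted p under 0.05, beside 9.89% of all genes. The median log2 fold change of the list was −0.009, beside 0.011 for all genes tested. At that unadjusted p, 3 were higher and 5 lower among 20 genes of hepcidin control, 1 and 2 among 6 of iron sensing and ferritin turnover, 2 and 1 among 10 of iron transport, 2 and 2 among 13 of heme uptake and breakdown, 2 and 0 among 8 of heme synthesis, and 2 and 2 among 11 of iron-sulfur cluster assembly. *Atoh8*, a transcription factor of the BMP and SMAD branch, fell from 7.54, 7.41, 6.27 and 4.67 FPKM in the CD-fed libraries (f/f-labelled first) to 4.66, 2.76, 3.58 and 4.46 in the HFD-fed ones, which do not overlap by a narrow gap (log2 fold change −0.59, standard error 0.14, limma adjusted p = 0.049). *Hjv*, the BMP coreceptor hemojuvelin, rose (log2 fold change 0.30, standard error 0.06, limma adjusted p = 0.036), a call that was lost without any 1 of the 8 libraries (0.060 to 0.11). *Stat3* was 26.7 to 33.9 FPKM on CD and 22.0 to 25.8 on HFD (log2 fold change −0.30, limma adjusted p = 0.066). *Smad5*, a SMAD factor of the BMP branch, was at 0.17 (limma adjusted p = 0.13). *Bmp6*, the main ligand of this branch, was at 0.09 (standard error 0.15, limma adjusted p = 0.74), *Id1*, a target of it, at −0.14 (standard error 0.31, limma adjusted p = 0.82), and *Tmprss6*, the protease that cleaves hemojuvelin, at 0.05 (standard error 0.05, limma adjusted p = 0.51).

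*Il6ra*, the interleukin-6 receptor chain, had an FPKM of 18.6 and 18.7 in the f/f-labelled CD, 8.18 and 9.39 in the LKO-labelled CD, 19.2 and 15.7 in the f/f-labelled HFD and 15.0 and 17.8 in the LKO-labelled HFD libraries. The LKO-labelled CD libraries were far below all the others. Between the genotypes on CD its log2 fold change was −1.001 (standard error 0.12, limma adjusted p = 0.084). The adjusted p was 0.045 when only genes above an FPKM of 1 in all 8 libraries were tested. Within LKO-labelled libraries it rose on HFD (log2 fold change 0.87, standard error 0.12, limma adjusted p = 0.022), and the adjusted p was 0.056 to 0.12 without any 1 of the 6 libraries that are not f/f-labelled HFD.

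**Figure D4:**
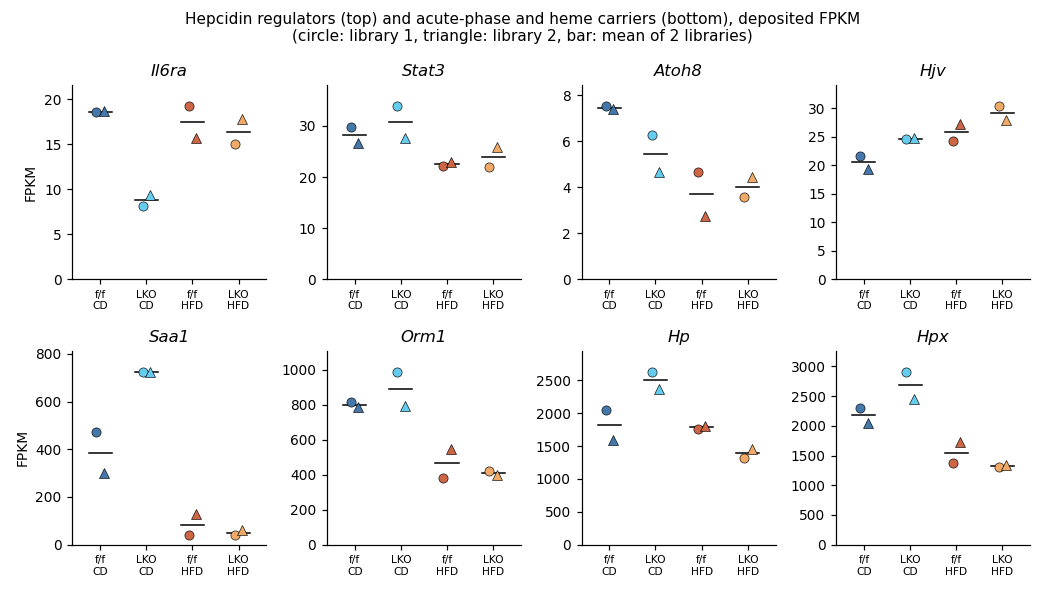
FPKM (vertical axis, from 0) of 4 hepcidin regulators and of 4 secreted plasma proteins in the 8 libraries, with the mean of each group as a bar. *Il6ra* is low in the LKO-labelled CD libraries only (8.18 and 9.39), and *Saa1* and *Orm1* are lower in every HFD-fed library than in every CD-fed one.

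Hepcidin shares its interleukin-6 input with the acute-phase proteins, so their levels are given beside it. Of 7 such genes 4 fell on HFD over both genotypes, beside 9.89% of all genes that passed in either direction, namely *Saa1* (log2 fold change −3.03, standard error 0.36, limma adjusted p = 0.0071), *Saa2* (−3.19, standard error 0.46, limma adjusted p = 0.012), *Orm1* (−0.83, standard error 0.11, limma adjusted p = 0.010) and *Orm2* (−1.73, standard error 0.30, limma adjusted p = 0.019). The call of *Saa2* was lost without the second f/f-labelled CD, the second LKO-labelled CD or the first LKO-labelled HFD library (limma adjusted p 0.053 to 0.058), and that of *Orm2* without either f/f-labelled CD or either LKO-labelled HFD library (0.062 to 0.073). *Saa3*, *Crp* and *Itih4* had limma adjusted p of 0.43, 0.63 and 0.43. The 7 genes summed to 2069 to 3349 FPKM on CD and 1151 to 1650 on HFD, without overlap. The median log2 fold change of the 7 was −0.83. Between the genotypes on CD all 7 were higher in LKO-labelled libraries, and the deposited FPKM of 6 did not overlap (43.3% of all genes in either direction). By limma 1 of the 7, *Orm2*, had an unadjusted p under 0.05 (12.3% of all genes) and 0 an adjusted one. *Saa1*, for example, was 473 and 300 FPKM in f/f-labelled and 725 and 726 in LKO-labelled CD libraries, while *Hamp* overlapped between these groups. *Saa1* and *Saa2*, and *Orm1* and *Orm2*, are near copies whose reads may be hard to tell apart. Whether the changes of these genes and of *Hamp* are linked was not tested.

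Among the other groups of the wider list, *Flvcr2*, a heme and choline transporter, rose from 1.33 to 2.05 FPKM on CD to 2.43 to 3.24 on HFD (log2 fold change 0.58, standard error 0.09, limma adjusted p = 0.014). *Slc39a8*, a zinc, manganese and iron importer, rose (0.40, standard error 0.08, limma adjusted p = 0.025), as did *Steap3*, a ferrireductase (0.43, standard error 0.08, limma adjusted p = 0.026), *Cpox*, an enzyme of heme synthesis (0.34, standard error 0.06, limma adjusted p = 0.017), and *Pcbp2*, an RNA-binding protein that also carries iron (0.27, standard error 0.05, limma adjusted p = 0.019). For *Cpox* the f/f-labelled libraries overlapped between the diets (72.0 and 76.8 FPKM on CD, 80.7 and 75.5 on HFD). Its LKO-labelled libraries did not (58.8 and 63.5 on CD, 80.5 and 91.3 on HFD). *Hpx*, the heme carrier hemopexin, fell (−0.43, standard error 0.10, limma adjusted p = 0.040), from 2055 to 2914 FPKM on CD to 1310 to 1723 on HFD. Its value also depended on quantile normalization, and without that step it was −0.754 (standard error 0.095, limma adjusted p = 0.008). *Hjv*, *Steap3*, *Il6ra* (0.40, standard error 0.08, limma adjusted p = 0.033), *Hpx* and *Atoh8* overlapped between the diets after normalization and were, like *Bmp6*, *Id1* and *Tmprss6*, named after their values were seen. The average of *Il6ra* joined the higher HFD values of LKO-labelled libraries with f/f-labelled libraries that overlapped between the diets (18.6 and 18.7 FPKM on CD, 19.2 and 15.7 on HFD). Without the second LKO-labelled HFD library 0 of the 9 passed (adjusted p by limma 0.060 to 0.12, with 19 genes of the list at an unadjusted p under 0.05), and without each other library 1 to 4 genes of the list passed. With low genes kept 3 of the list passed, since *Hjv*, *Atoh8*, *Il6ra*, *Slc39a8*, *Steap3* and *Hpx* lost their calls (limma adjusted p 0.053 to 0.11). In iron sensing and ferritin turnover, *Ireb2*, an iron regulatory protein, and *Ncoa4*, the receptor that sends ferritin to lysosomes, were lower in all HFD-fed libraries without passing adjustment (−0.23 and −0.20, limma adjusted p = 0.071 and 0.090). The same held on the higher side for the iron-sulfur cluster genes *Isca2* and *Hscb* (0.24 and 0.35, limma adjusted p = 0.064 and 0.094).

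**Figure D5:**
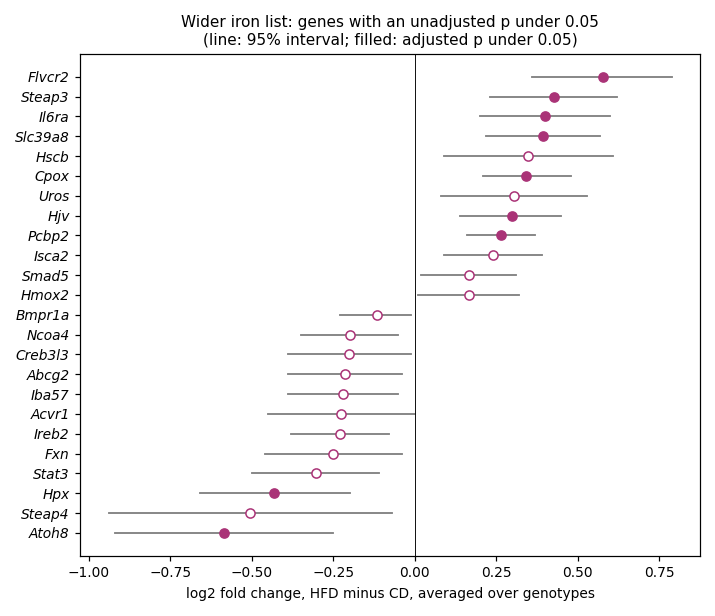
Log2 fold change on HFD over both genotypes (horizontal axis, 95% interval) of the 24 genes of the wider iron list with an unadjusted limma p under 0.05; filled points have an adjusted p under 0.05. The values run from −0.59 for *Atoh8* to 0.58 for *Flvcr2*, and 9 points are filled.

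Between the genotypes the wider list had 3 of 68 genes with an unadjusted p under 0.05 on HFD (4.41%, beside 9.58% of all genes) and 10 on CD (14.7%, beside 12.3%), and 0 with an adjusted p under 0.05. On HFD these were *Bmpr1a*, a BMP receptor (log2 fold change 0.22, standard error 0.07), *Slc39a14*, a hepatocyte importer of iron not bound to transferrin (−0.33, standard error 0.11), and *Hp*, the hemoglobin carrier haptoglobin (−0.27, standard error 0.11). *Slc39a14* was 73.1 and 83.3 FPKM in the f/f-labelled HFD and 57.5 and 63.5 in the LKO-labelled HFD libraries. On CD, besides *Il6ra*, the metalloreductase genes *Steap2* (0.45) and *Steap3* (0.38), the SMAD genes *Smad6* (0.60) and *Smad1* (0.27), *Hjv* (0.28), *Hp* (0.38), *Blvrb*, a biliverdin reductase (0.20), and *Lcn2*, which binds bacterial iron carriers (1.44), were higher in LKO-labelled libraries, while *Cpox* was lower (−0.26). Their limma adjusted p ran from 0.21 to 0.35. For the difference of the genotype values between the diets 8 of 68 had an unadjusted p under 0.05 (beside 8.35% of all genes) and 0 an adjusted one, with *Il6ra* at the smallest p (0.94, standard error 0.17, limma adjusted p = 0.40).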

How the data were processed

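RNA of 8 liver libraries made with the TruSeq RNA kit was sequenced, and the authors removed adapters and trimmed reads with cutadapt 1.0, aligned them to GRCm38 with TopHat2 2.0.7 and estimated FPKM per gene with Cufflinks, whose version and annotation are not given in the sources used here. The deposited FPKM are linear values for 38283 genes. This kit does not mark strand, so that reads of overlapping antisense transcripts cannot be told apart.

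Here the 11634 genes that exceeded FPKM 1 in any library were transformed to log2(FPKM + 1), on which changes of low genes are understated, and quantile normalized, as in the study's methods. The study's own test, which rests on permuted libraries, was not rerun. The 4 groups were fitted together with limma 3.58.1 (R 4.3.3, mean-variance trend, 4 residual degrees of freedom plus 2.8 from moderation), with Benjamini-Hochberg adjustment over all tested genes within each comparison. A gene "rose" or "fell" at an adjusted p under 0.05. An exact permutation test of 2 libraries against 2 cannot go below p = 0.333. FPKM are not counts, and no count test was run. Symbols, positions and transcripts came from GENCODE M21, and promoters from RefSeq. Another promoter motif than those named is not reported here.

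Of the wider list, genes with an unadjusted p under 0.05 and separated libraries were named, at most the 10 of smallest p per comparison. The member genes, lists and tests were chosen with earlier results of these data known. Alternatives were a pseudocount of 0.1, no quantile normalization, FPKM above 1 in all 8 libraries, no filter beyond FPKM above 0, the replicate number as a block, and leaving out each library. In simulated data of 11633 genes with 200 changed, for LKO against f/f on HFD, the share recovered was 95% for changes of 2 in log2 units and 77% for changes of 1. Of 182 calls 10 fell on unchanged genes. The changes were all rises, in genes above a low limit, with normally distributed values at each gene's estimated spread. The shares therefore do not describe falls or the lowest genes in the real libraries.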

Additional observations from a re-analysis of the deposited data

Results flagged for a closer look

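Among the 10 members and the 68 tested genes of the wider list, 6 showed the following pattern. Their normalized libraries did not overlap between the groups on both sides of a contrast and moved in opposite directions. This pattern drew attention to them. The share of all 11634 genes with the same pattern was not counted, so the 6 are not shown to exceed a background. Lack of overlap is common in a single contrast. As deposited, it held for 42.1% of all genes between genotypes on HFD and 43.3% on CD. Between the diets it held for 49.9% in f/f-labelled and 53.2% in LKO-labelled libraries. These shares are of deposited values in 1 contrast each, so they are no background for the 6. *Scara5* was lower on HFD in LKO-labelled libraries (log2 fold change −0.84) and higher in f/f-labelled ones (0.48), a difference of −1.32 (limma adjusted p = 0.56). *Smad1* differed by −0.32 and *Steap2* by −0.63, both in the comparison of genotypes between the diets and in that of diets between the genotypes (limma adjusted p = 0.56 and 0.52). The genotype values of *Hp* differed between the diets by −0.64 (limma adjusted p = 0.52) and those of *Cpox* by 0.40 (limma adjusted p = 0.56). The diet values of *Cd163*, the macrophage receptor for haptoglobin-bound hemoglobin, differed between the genotypes by 0.55 (limma adjusted p = 0.59). The tests of these differences all failed adjustment over 11634 genes.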

How the results depend on the processing

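Results are limited by 2 pools per group and by FPKM without read counts. The fall of *Hamp* over both genotypes held under all 13 alternatives. With a pseudocount of 0.1 all 70 values of the 10 genes kept direction and side of the threshold, and the adjusted calls of all genes moved from 2 to 1 between genotypes on CD and from 4 to 2 for the interaction of genotype and diet. *Scara5* has no value with FPKM above 1 in all 8 libraries.

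Without quantile normalization 8 values changed sign. On CD between genotypes these were *Slc40a1* (−0.003) and *Fth1* (0.024), for the interaction *Ftl1* (−0.014), for diet in f/f *Trf* (−0.295), *Fth1* (−0.032) and *Ftl1* (−0.141), for diet in LKO *Ftl1* (−0.155) and for diet over both genotypes *Ftl1* (−0.148). *Trf* over both genotypes passed without it (−0.378). Among all genes 7 instead of 12 then passed between genotypes over both diets, and 1 of the 10 instead of 2 had an unadjusted p under 0.05 on CD.

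With FPKM above 1 in all 8 libraries fewer genes were tested. *Ftl1* on CD between genotypes became −0.012. The adjusted calls became 7 between genotypes on CD, 50 over both diets, 323 for diet in f/f, 570 for diet in LKO and 0 for the interaction by limma. Of the tested members 2 then passed for diet in f/f (*Hamp* and *Hfe*), beside 323 of 9839 genes. In LKO 2 passed (*Hamp* and *Fth1*), beside 570 of 9839. *Fth1* also passed for diet over both genotypes (0.361). Between genotypes over both diets 2 members had an unadjusted p under 0.05, and 0 had one for the interaction. With no filter beyond FPKM above 0 the adjusted calls were 24 (HFD) and 10 (CD) between genotypes, 28 over both diets, 19 for the interaction, 46 (f/f) and 135 (LKO) for diet and 704 for diet over both genotypes instead of 5, 2, 12, 4, 155, 351 and 1151, the 10 genes had 0 calls for diet in LKO, and 1 had an unadjusted p under 0.05 on CD.

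The replicate numbers link no animals in the labels. Deviations of same-numbered libraries correlated at 0.145 for the CD groups and 0.0878 for the HFD groups. With the replicate block 34 genes passed for diet in f/f and 223 in LKO, 0 of the 10 passed in LKO, *Slc40a1* over both genotypes had an adjusted p of 0.051 (limma), the wider list went from 9 to 5 calls for diet over both genotypes as *Hjv*, *Atoh8*, *Il6ra* and *Hpx* lost theirs (0.054 to 0.063), and 1 of the 10 had an unadjusted p under 0.05 on CD and 2 over both diets between genotypes.

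When each library was left out in turn, the adjusted calls of all genes ran from 4 to 21 (HFD) and 2 to 19 (CD) between genotypes, 13 to 30 over both diets, 10 to 21 for the interaction, 14 to 49 (f/f) and 21 to 154 (LKO) for diet and 374 to 816 for diet over both genotypes. Of the 10 genes, 0 to 3 (HFD), 0 to 2 (CD), 1 to 4 (both diets) and 0 to 2 (interaction) had an unadjusted p under 0.05 and 3 to 6 for diet in LKO, where 0 to 1 passed adjustment, and 1 to 3 passed for diet over both genotypes. Signs turned for *Ftl1* (0.0 to 0.401), *Tfr2* (−0.099 to 0.041) and *Hfe* (−0.241 to 0.086) on HFD between genotypes, and on CD for *Hamp* (−0.346 to 0.105), *Hamp2* (−0.315 to 0.944), *Fth1* (−0.099 to 0.059), *Slc40a1* (−0.083 to 0.114), *Ftl1* (−0.053 to 0.087) and *Scara5* (−0.155 to 0.666). They turned for the interaction of *Ftl1* (−0.016 to 0.382), *Tfrc* (−0.283 to 0.16) and *Hfe* (−0.078 to 0.248), for diet in f/f of *Hamp2* (−0.259 to 1.112), *Tfr2* (−0.018 to 0.129), *Trf* (−0.121 to 0.402), *Ftl1* (−0.113 to 0.28) and *Tfrc* (−0.271 to 0.173), and for diet over both genotypes of *Trf* (−0.303 to 0.059), *Scara5* (−0.386 to 0.022) and *Tfrc* (−0.19 to 0.032). The cause of these moves was not tested.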
